A study of Mus musculus with 12 samples.

Results

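Genes of the Notch pathway, 10 in number, were followed in 10T1/2 cells cultured on collagen matrices with or without collagen-bound aortic carboxypeptidase-like protein (ACLP). They are the ligands Jag1 and Dll1, the receptors Notch1, Notch2 and Notch3, and the target genes Hes1, Hey1, Hey2, Heyl and Nrarp. They were taken by gene name from a table of 56748 genes, in which all 10 were listed, and 8 of them had enough counts to be tested. C3H10T1/2 is an established line of wild-type mouse mesenchymal cells, and ACLP, the product of Aebp1, lies outside the cell, where it attaches to collagen fibres. Cells were starved of serum for 1 h in suspension. They were then cultured for 18 h on 12 kPa hydrogels, a substrate of defined stiffness, in medium with 0.5% serum. In the col1 group the hydrogel carried 0.05 mg/ml type I collagen alone. In the col1-ACLP group the same collagen was polymerized with 30 nM recombinant ACLP. In the col1-ACLP+SB group the cells on the ACLP matrix also received 5 µM SB431542, a kinase inhibitor of the TGFβ type I receptor ALK5. Each group held 4 libraries of poly(A)-enriched RNA. No group received SB431542 on collagen alone, so an effect of the inhibitor in the absence of ACLP was not measured. The col1 libraries serve as the reference of both comparisons with col1, and the results of those comparisons are therefore not independent of each other.

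Notch receptors are activated by ligands on the surface of a neighbouring cell. Ligand pulling exposes a cleavage site, ADAM proteases and γ-secretase then release the intracellular domain, and this domain enters the nucleus and converts the DNA-binding protein RBPJ from a repressor to an activator. Hes and Hey genes, which encode basic helix-loop-helix repressors, are the best-known targets, and in mesenchymal cells the pathway is known for its part in mural and skeletal cell fate and in fibroblast activation. RNA levels of these genes are measured here, and cleavage of the receptor is not.

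Libraries held 29246154 to 52201922 counts. Library col1 replicate 2 stood apart, at -86.7 on the first principal component (19.5% of the variance) where the other col1 libraries lay between -11.1 and -8.97 and the remaining 8 between 10.0 and 20.6. The 8 mesenchymal markers examined were all above 1 CPM (counts scaled to library size with TMM factors), and their summed level ran from 25432 to 26348 CPM on col1, from 35200.0 to 43442 CPM on col1-ACLP and from 32152 to 37648 CPM on col1-ACLP+SB. The higher sum lay in the collagen genes Col1a1 and Col1a2, which rose by 0.82 and 0.65 on the log2 scale on col1-ACLP, whereas Pdgfra fell by 0.76, Twist1 by 0.43, Prrx1 by 0.16 and Pdgfrb by 0.15, and Vim (-0.088) and Thy1 (0.049) did not pass the test. Of the 5 endothelial markers only Tek was tested, and Pecam1, Cdh5, Kdr and Emcn had no more than 16 counts in any library. The summed level of all 5 was 5.06 to 8.30 CPM in col1, 7.52 to 9.85 CPM in col1-ACLP and 4.50 to 6.41 CPM in col1-ACLP+SB. Most of it was Tek, with 4.79 to 8.20, 7.35 to 9.57 and 3.95 to 6.01 CPM in the same groups. Tek was called lower with SB431542 than without it on ACLP (-0.86, adjusted p = 0.0116 by edgeR, without overlap). The epithelial marker Epcam and the leukocyte markers Cd3e and Adgre1 were at 0, and the summed levels of the 4 epithelial, 4 leukocyte and 4 adipocyte markers did not exceed 4.71, 10.0 and 2.22 CPM. Of these, Cd68 fell by 0.49 on col1-ACLP (adjusted p = 0.0284) and Fabp4 by 1.97 on col1-ACLP+SB against col1 (adjusted p = 0.0133), both by edgeR and without overlap. The part of these marker differences in the Notch results was not tested.

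On col1-ACLP, RNA of the ligand Jag1 rose 1.92-fold and RNA of the targets Hey2 and Hey1 rose 3.18-fold and 3.45-fold over col1. Hey2 was called in all 20 alternatives run, whereas Hey1, with few counts, lost significance in 10 of 20. The receptors Notch1 and Notch2 rose 1.17-fold and 1.14-fold, while Notch3, Hes1 and Dll1 did not pass the test. With SB431542, Jag1 lay between the other groups and differed from both, Hey2 stayed above col1, and no difference in Hey2, Hey1 or Hes1 between the ACLP groups passed the test. The plot of CPM in each library shows the 10 genes side by side.

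**Figure D1:**
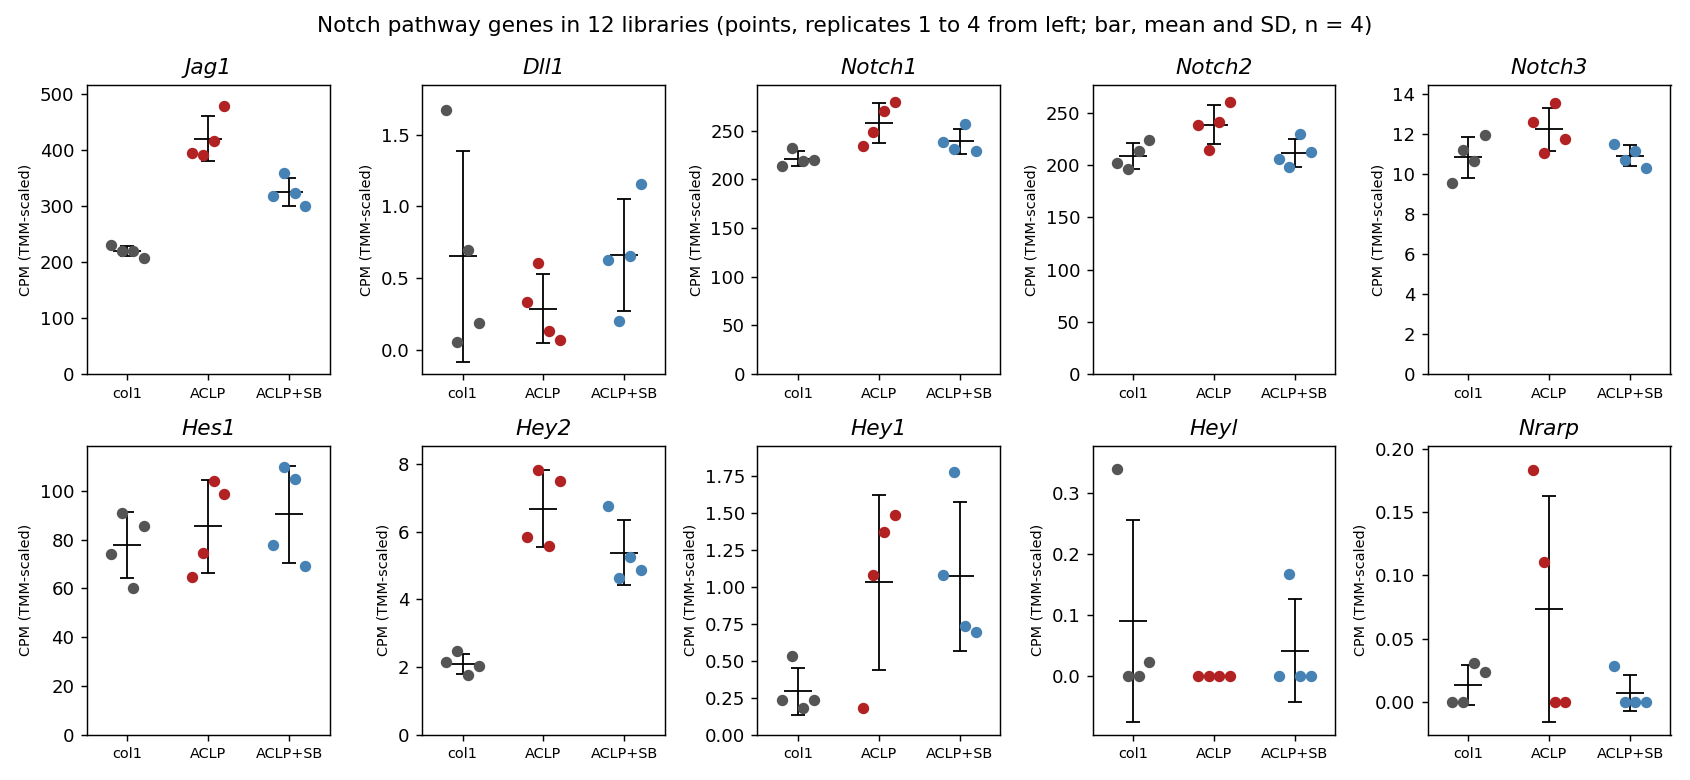
Level of each of the 10 genes in every library, in CPM after TMM scaling on linear axes, by group; points are replicates 1 to 4 from left to right and the bar is the mean with its SD (n = 4). The col1-ACLP libraries lie above all col1 libraries for Jag1 (392 to 479 against 208 to 230.4 CPM), Hey2 (5.58 to 7.82 against 1.76 to 2.46 CPM) and Notch1 (234 to 279.5 against 214 to 233 CPM).

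The promoters of the 2 genes with the clearest change are given here because RBPJ recognises a short core, TGGGAA. The sequences come from the RefSeq promoter table (GRCm38.p6) and were placed on GRCm39 by their single exact match, and 7 of the 10 genes were matched in that table. Positions count from the start given in that table, which lies 18 bases inside the Hey2 gene and 124 bases inside the Jag1 gene as the count table places them. Both windows lie on the minus strand and run 5′ to 3′ from 250 bases before the table's start. The Hey2 window, chr10:30718777-30719029, ends 3 bases after that start, and the Jag1 window, chr2:136958565-136958690, ends just before the gene, with matches to the RBPJ core on either strand in capitals.
Hey2: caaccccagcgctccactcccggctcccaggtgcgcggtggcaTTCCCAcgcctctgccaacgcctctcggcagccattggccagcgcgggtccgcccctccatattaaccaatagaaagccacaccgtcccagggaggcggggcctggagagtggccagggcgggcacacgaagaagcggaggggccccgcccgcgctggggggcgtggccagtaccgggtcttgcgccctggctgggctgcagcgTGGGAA
Jag1: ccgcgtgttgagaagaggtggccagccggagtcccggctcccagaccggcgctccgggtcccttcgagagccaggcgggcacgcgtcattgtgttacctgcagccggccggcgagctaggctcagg

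The Hey2 promoter held the RBPJ core at 2 places, at -207 to -202 on the opposite strand and at -3 to 3 around the table's start, which is inside the annotated gene. Of all 32851 promoters in the table, searched over 300 bases each and on both strands, 25.6% held the core at least once and 3.79% at 2 or more places. Hey2 was the only 1 of the 7 matched genes with a match, and the Jag1 promoter held none of the 4 motifs searched. The targets Hes1, Hey1 and Heyl could not be searched, and the first start given for Dll1 lies 1049 bases inside the annotated gene. A TEAD core, GGAATG, in the Hey2 promoter at -209 to -204 overlaps the first RBPJ match, and 14.7% of all promoters hold that motif. The Notch1 promoter held 2 TEAD cores, at -233 to -228 and at -216 to -211, but the table's start for Notch1 lies 12841 bases inside the annotated gene. The binding motifs of Hes and Hey proteins, the N-box CACNAG (42.5% of all promoters) and the E-box CACGTG (7.15%), were not found in the Hey2 promoter. The N-box was present in the promoters of Notch1, Notch2, Notch3, Dll1 and Nrarp, and the E-box in that of Nrarp. These are matches of letters, and binding was not measured.

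Jag1 (ENSMUSG00000027276, chr2:136923376-136958564, minus strand, GRCm39) encodes Jagged1, a membrane-bound ligand of the Notch receptors. Its level was 230.4, 220.0, 219.9 and 208 CPM in the 4 col1 libraries, 395, 392, 417 and 479 CPM in the col1-ACLP libraries, and 318, 360.0, 323 and 300.0 CPM in the col1-ACLP+SB libraries. The 3 groups did not overlap, with col1 lowest and col1-ACLP highest. The difference of col1-ACLP from col1 was 0.94 on the log2 scale (SE 0.0609, 95% interval 0.81 to 1.06, adjusted p = 1.28e-11 by the quasi-likelihood test of edgeR, adjusted by Benjamini-Hochberg over the 16465 genes tested). In bulk RNA, more RNA per cell and a larger share of cells that express a gene cannot be told apart. With SB431542 the difference from col1 was 0.57 (SE 0.0607, 95% interval 0.44 to 0.69, adjusted p = 2.02e-07 by the same edgeR test), just inside the fold change limit of 0.58 used for calls. The limit was passed without col1 replicate 1 (0.59) and without col1-ACLP+SB replicate 4 (0.60). Between the ACLP groups, Jag1 was lower with SB431542 by -0.37 (SE 0.0604, 95% interval -0.49 to -0.25, adjusted p = 0.00160 by the same edgeR test), in 4 of 4 libraries.

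Jag1 made up nearly all of the RNA of the canonical ligands. Per gene length, in CPM per kilobase, its mean level was 37.7 ± 1.58 on collagen alone, 72.2 ± 6.91 on col1-ACLP and 55.8 ± 4.31 with the inhibitor (SD, n = 4 each). It accounted for 98.7% to 99.9% of the summed level of Jag1, Jag2, Dll1, Dll3 and Dll4 in the 12 libraries. Dlk1 and Dlk2 were not part of this sum, and the group means of Dlk2 ran from 0.857 to 1.03 CPM per kilobase.

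Dll1 (ENSMUSG00000014773, chr17:15587616-15597134, minus strand), encoding the ligand Delta-like 1, was close to the limit of detection. It had 64, 2, 23 and 8 counts in the col1 libraries, 11, 22, 4 and 2 in the col1-ACLP libraries, and 22, 6, 34 and 35 in the col1-ACLP+SB libraries. The groups overlapped throughout. The difference of col1-ACLP from col1 was -1.15 with an interval of -2.84 to 0.55 (adjusted p = 0.404 by the same edgeR test). That interval includes 0 and excludes neither a fall nor a small rise. Leaving out 1 library moved it from -1.82 (without col1-ACLP replicate 2) to -0.078 (without col1 replicate 1, the library with 64 counts).

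The other ligands were also scarce. Jag2, the second Jagged ligand, had a mean level of 0.553, 0.562 and 0.983 CPM in col1, col1-ACLP and col1-ACLP+SB, and its adjusted p was 0.987, 0.485 and 0.652 in the comparisons of col1-ACLP with col1, of col1-ACLP+SB with col1 and between the ACLP groups (edgeR). Dlk2, a non-canonical ligand, had 2.17, 2.18 and 1.81 CPM in the same groups, and its adjusted p was 0.751 or more in the 3 comparisons by the same edgeR test. Dll3, Dll4 and Dlk1 were too low to be tested. Dll4, known as the ligand of sprouting endothelium, had 6 to 13 counts in the col1 libraries, 0 to 6 in the col1-ACLP libraries and 0 to 4 in the col1-ACLP+SB libraries.

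**Figure D2:**
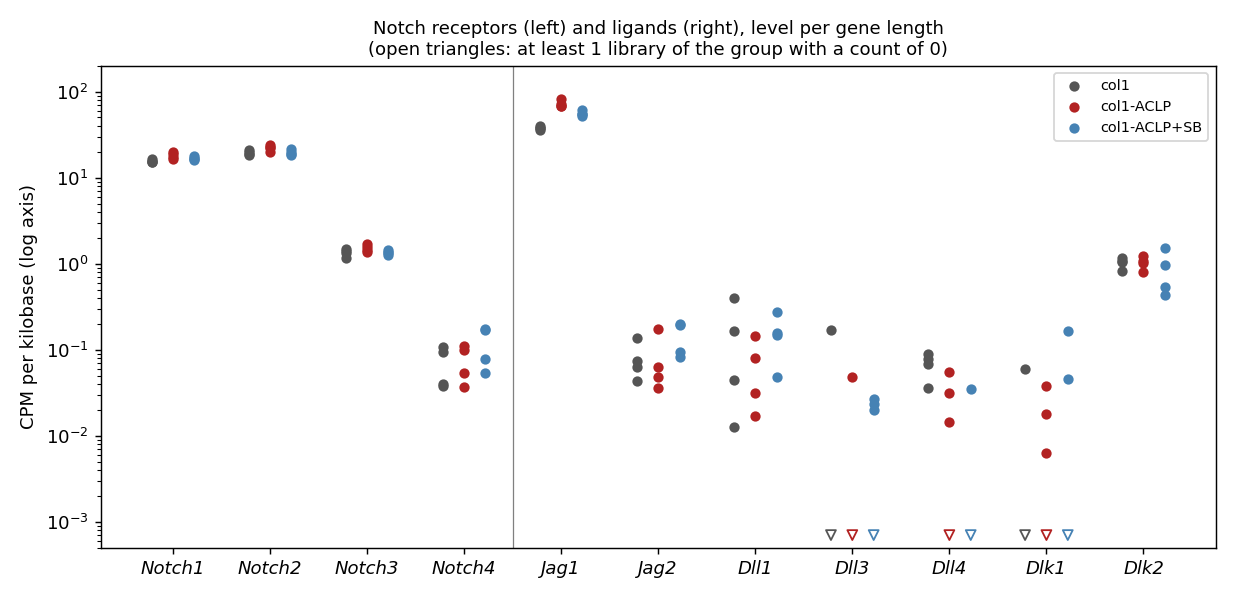
Level of each Notch receptor (left) and ligand (right) per gene length, in CPM per kilobase on a log axis, for the 3 groups (each point is 1 library; open triangles mark groups with at least 1 library at 0 counts, which the log axis cannot show). The group means of Jag1 run from 37.7 to 72.2 CPM per kilobase while the next ligand, Dlk2, reaches 1.03, and those of Notch1 and Notch2 run from 15.6 to 22.1, above Notch3 at 1.34 to 1.51.

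Among the receptors, Notch1 and Notch2 were carried by these cells at similar levels and both were somewhat higher on col1-ACLP. Notch1 (ENSMUSG00000026923, chr2:26347915-26406675, minus strand) measured 214, 233, 219 and 220.1 CPM in the col1 libraries, 234, 249, 271 and 279.5 CPM in the col1-ACLP libraries, and 239, 231, 257 and 229 CPM in the col1-ACLP+SB libraries. All col1-ACLP libraries lay above all col1 libraries (the nearest were 234 and 233 CPM), and the col1-ACLP+SB libraries overlapped both groups. Notch1 rose by 0.22 on the log2 scale (SE 0.0548, 95% interval 0.11 to 0.34, adjusted p = 0.00452 by the same edgeR test), a change below the fold change limit.

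Notch2 (ENSMUSG00000027878, chr3:97920843-98057677, plus strand) measured 202, 196, 213 and 224 CPM in the col1 libraries, 238, 214, 242 and 260.3 CPM in the col1-ACLP libraries, and 206, 198, 229 and 212 CPM in the col1-ACLP+SB libraries. The lowest col1-ACLP library lay within the range of col1. Notch2 rose by 0.19 (SE 0.0589, 95% interval 0.071 to 0.31, adjusted p = 0.0230 by the same edgeR test). The adjusted p was 0.0696 without col1 replicate 1, 0.0795 without col1 replicate 2, 0.0586 without col1-ACLP replicate 3 and 0.118 without col1-ACLP replicate 4 (edgeR).

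Notch3 (ENSMUSG00000038146, chr17:32339794-32385826, minus strand), the receptor best known from vascular mural cells, measured 9.53 to 11.9 CPM in col1, 11.1 to 13.6 CPM in col1-ACLP and 10.3 to 11.5 CPM in col1-ACLP+SB. The 3 groups overlapped, and the difference of col1-ACLP from col1 was 0.18 (95% interval -0.068 to 0.42, adjusted p = 0.366 by the same edgeR test). Notch4, known as the endothelial receptor, had group means of 0.565, 0.604 and 0.954 CPM, with an adjusted p of 0.529 or more in the 3 comparisons (edgeR).

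With SB431542, none of the 4 receptors passed the test against col1 or against col1-ACLP. Notch1 differed from col1 by 0.11 (95% interval -0.0021 to 0.22) and from col1-ACLP by -0.11 (95% interval -0.22 to 0.0015). Notch2 differed from col1-ACLP by -0.17 (95% interval -0.30 to -0.052, adjusted p = 0.157 by the same edgeR test).

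The makeup of the receptors varied little. Notch2 gave 50.5% to 55.0% of the summed receptor level per gene length in the 12 libraries, Notch1 41.0% to 45.4%, Notch3 3.20% to 3.91% and Notch4 0.0865% to 0.484%. The balance of ligand to receptor moved instead. The level of Jag1 per kilobase was 0.947 to 1.13 times the summed level of Notch1, Notch2 and Notch3 in the col1 libraries, 1.66 to 1.82 times in the col1-ACLP libraries and 1.36 to 1.72 times in the col1-ACLP+SB libraries. The col1 libraries did not overlap either ACLP group in this ratio, and the ACLP groups overlapped each other through col1-ACLP+SB replicate 2. These shares and ratios rest on the gene lengths used, 14232 bases for Notch1 and 10782 bases for Notch2. In CPM, the mean over all libraries was 239.6 for Notch1 and 219.6 for Notch2.

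Some genes overlap Notch receptor genes in the annotation, and it is not stated how reads in shared regions were counted. The long noncoding RNA 0610009E02Rik overlaps Notch1 and had 351 counts in all libraries, beside 101832 for Notch1. Gm42820 lies within Notch2 and had 146 counts beside 93358, and Gm17276 overlaps Notch3 on the opposite strand and had 6 counts beside 4812.

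Of the target genes, Hey2 showed the most distinct difference between the groups. Hey2 (ENSMUSG00000019789, chr10:30708355-30718797, minus strand) encodes a repressor of the Hey family that is known from the development of the heart and arteries. It measured 2.14, 2.46, 1.76 and 2.02 CPM in the col1 libraries, 5.83, 7.82, 5.58 and 7.48 CPM in the col1-ACLP libraries, and 6.75, 4.63, 5.25 and 4.86 CPM in the col1-ACLP+SB libraries. Every library of both ACLP groups lay above every col1 library, and the ACLP groups overlapped each other. These levels rested on 58 to 93 counts per library in col1 and 138 to 283 in the ACLP groups. Hey2 rose by 1.67 on col1-ACLP (SE 0.199, 95% interval 1.26 to 2.08, adjusted p = 5.72e-07) and by 1.36 on col1-ACLP+SB (SE 0.199, 95% interval 0.95 to 1.77, adjusted p = 2.45e-05), both by the same edgeR test. The difference between the ACLP groups was -0.31 (95% interval -0.70 to 0.078, adjusted p = 0.547 by the same edgeR test), an interval that includes 0 and does not show that the ACLP groups were alike.

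Hey1 (ENSMUSG00000040289, chr3:8728419-8732316, minus strand), a close relative of Hey2 and a common readout of Notch activity, had far fewer counts. There were 9, 20, 6 and 10 counts in the col1 libraries, 6, 39, 41 and 42 in the col1-ACLP libraries, and 38, 53, 38 and 21 in the col1-ACLP+SB libraries. In CPM these were 0.235, 0.530, 0.182 and 0.232 in col1, 0.183, 1.08, 1.37 and 1.49 in col1-ACLP, and 1.08, 1.78, 0.733 and 0.695 in col1-ACLP+SB. Replicates 2, 3 and 4 of col1-ACLP lay above all col1 libraries and replicate 1 lay among them, whereas all 4 col1-ACLP+SB libraries lay above all col1 libraries.

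Hey1 rose by 1.79 on col1-ACLP (SE 0.613, 95% interval 0.52 to 3.05, adjusted p = 0.0438 by the same edgeR test). The difference of col1-ACLP+SB from col1 was 1.84 (SE 0.612, 95% interval 0.58 to 3.10), with an adjusted p of 0.0605 by the same edgeR test. Between the ACLP groups the difference was 0.056 with an interval of -1.13 to 1.25 (adjusted p = 0.992 by the same edgeR test), too wide to show that they were alike. The call on col1-ACLP depended on single libraries. Its adjusted p by edgeR was 0.0971, 0.109 and 0.0984 without col1 replicate 1, 3 or 4, it was 0.0849, 0.118 and 0.136 without col1-ACLP replicate 2, 3 or 4, and it was 0.0561 without col1-ACLP+SB replicate 1. Without col1-ACLP replicate 1, the library that lay among the col1 values, the difference was 2.14 (adjusted p = 0.0108 by edgeR). For col1-ACLP+SB against col1 the adjusted p was 0.0290 without col1 replicate 2 and 0.0338 without col1-ACLP replicate 1 (edgeR).

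Hes1 (ENSMUSG00000022528, chr16:29883202-29886614, plus strand), the founding Hes target, is also driven by other pathways and oscillates in many cell types. It was abundant, and libraries of the same group differed widely. The levels were 74.2, 90.8, 60.2 and 85.7 CPM in col1, 64.6, 74.4, 104 and 98.9 CPM in col1-ACLP, and 77.9, 109.7, 105 and 69.2 CPM in col1-ACLP+SB. The groups overlapped throughout. The difference of col1-ACLP from col1 was 0.13 (SE 0.140, 95% interval -0.15 to 0.42, adjusted p = 0.603) and that of col1-ACLP+SB was 0.22 (95% interval -0.069 to 0.51, adjusted p = 0.429), both by the same edgeR test. The upper ends of both intervals lie below the lower ends of the intervals for Hey2 in the same comparisons.

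Heyl, the third Hey gene, and Nrarp, which encodes a feedback inhibitor of the Notch intracellular domain, were near the limit of detection and were not tested. Heyl (ENSMUSG00000032744, chr4:123127349-123143668, plus strand) had 13, 0, 0 and 1 counts in the col1 libraries, none in the 4 col1-ACLP libraries, and 0, 5, 0 and 0 in the col1-ACLP+SB libraries. Nrarp (ENSMUSG00000078202, chr2:25070770-25073351, plus strand) had 0, 0, 1 and 1 counts in col1, 6, 4, 0 and 0 in col1-ACLP, and 1, 0, 0 and 0 in col1-ACLP+SB. A count of 0 allows up to 3 counts, or 0.0579 to 0.106 CPM in these libraries, which covers counting error alone. Hes5 and Dtx1, other textbook targets, had no count in any library. Hes2 had no count in the 8 libraries of col1 and col1-ACLP and 2 to 23 counts in the 4 col1-ACLP+SB libraries, and did not pass the filter on low counts. Hes6, a Hes gene without the usual repressor activity, had 25.3, 23.2 and 23.3 CPM in the 3 groups and did not pass the test (-0.13 on col1-ACLP, adjusted p = 0.325 by the same edgeR test).

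Levels were ordered per gene length. In col1, Hes1 (29.5 to 44.6 CPM per kilobase) and Jag1 (35.7 to 39.5) were highest and could not be ranked. Notch2 (18.2 to 20.8) and Notch1 (15.0 to 16.3) followed and did not overlap. Their order rests on the gene lengths used, since the mean in col1 was 208.8 CPM for Notch2 and 221.4 CPM for Notch1. Notch3 (1.18 to 1.47) came next. Hey2 (0.383 to 0.536) lay above Hey1 (0.0558 to 0.162), and Dll1 (0.0126 to 0.396) overlapped both. In col1-ACLP the level of Jag1 (67.3 to 82.2) no longer overlapped that of Hes1 (31.7 to 51.1), and that of Hey2 (1.21 to 1.70) overlapped that of Notch3 (1.37 to 1.68). Over all libraries, the mean level of Jag1 stood at percentile 95.6 of the genes tested, Hes1 at 93.8, Notch2 at 85.4, Notch1 at 82.1, Notch3 at 33.5, Hey2 at 29.6, Hey1 at 11.5 and Dll1 at 5.62.

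**Figure D3:**
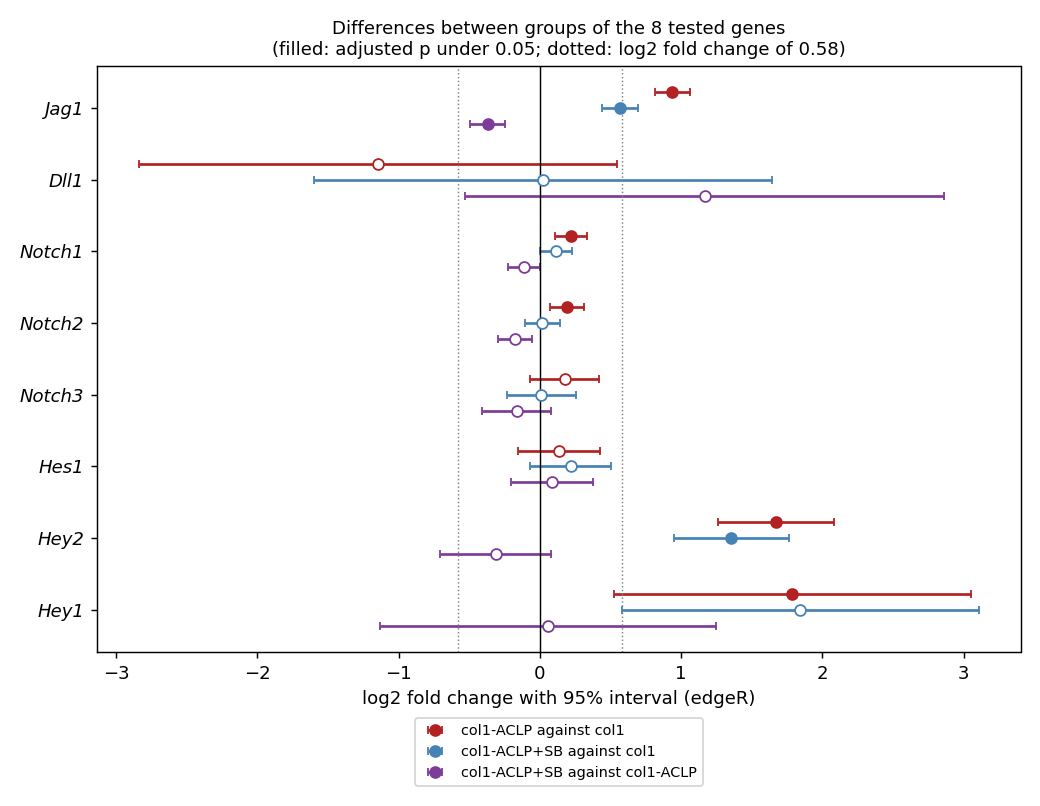
Log2 fold change with its 95% interval (edgeR) for the 8 tested genes in the 3 comparisons; filled points have an adjusted p below 0.05 and dotted lines mark a log2 fold change of 0.58 in either direction. Jag1 (0.94) and Hey2 (1.67) lie beyond the limit on col1-ACLP with narrow intervals, Hey1 has an interval of 0.52 to 3.05, and only Jag1 (-0.37) is filled between the ACLP groups.

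Counted together, 3 of the 8 tested genes (Jag1, Hey2 and Hey1) were called higher on col1-ACLP than on col1, with an adjusted p below 0.05 and a log2 fold change beyond 0.58, and 0 were called lower. By the same rule, 4.97% of all tested genes were called in either direction, 2.61% higher and 2.36% lower. By adjusted p alone, 5 of 8 were higher, where the share of all tested genes was 9.52%. In 3 of 8 (Jag1, Notch1 and Hey2) every col1-ACLP library lay above every col1 library, as in 10.9% of all tested genes. The median log2 fold change was 0.21, and that of all tested genes was -0.0099.

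Against col1, 1 of the 8 genes (Hey2) was called higher on col1-ACLP+SB, where 2.28% of all tested genes were called in either direction and 1.27% higher. By adjusted p alone there were 2 (Jag1 and Hey2), with 4.6% of all tested genes higher. In 3 of 8 (Jag1, Hey2 and Hey1) the groups did not overlap, all in the direction of higher with the inhibitor on ACLP than on col1, as in 6.7% of all tested genes. The median was 0.16, and that of all tested genes was 0.0046.

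Between the ACLP groups, 0 of the 8 genes were called, where 0.128% of all tested genes were, and DESeq2 and limma-voom also called 0 of them. Jag1 passed by adjusted p alone (0.905% of all tested genes were lower by that rule), and Jag1 and Notch2 had an unadjusted p below 0.05, as did 12.8% of all tested genes. Jag1 was the only 1 of the 8 whose groups did not overlap, as in 4.52% of all tested genes in that direction. The median was -0.14, and that of all tested genes was 0.0049.

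Without col1 replicate 2, the library that stood apart, the differences of col1-ACLP from col1 were 0.94 for Jag1, 1.75 for Hey2, 2.22 for Hey1 (adjusted p = 0.0196 by edgeR) and 0.25 for Notch1 (adjusted p = 0.00385 by edgeR). Those of col1-ACLP+SB from col1 were 0.57 for Jag1, 1.44 for Hey2 and 2.28 for Hey1.

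Mural cell markers were examined beside these values, because Jag1, Notch3, Hey1 and Hey2 are also active in that lineage. The summed level of the 4 markers was 290.3 to 306 CPM in col1, 454 to 601 CPM in col1-ACLP and 400.5 to 467 CPM in col1-ACLP+SB. Most of it was Cspg4, the NG2 proteoglycan, with 297 ± 7.17, 509.6 ± 60.8 and 426 ± 33.5 CPM (SD, n = 4 each), which rose by 0.78 on col1-ACLP (adjusted p = 1.03e-09 by the same edgeR test). Rgs5, a defining marker of pericytes, was lower in every col1-ACLP library (0.0668 to 0.166 CPM) than in every col1 library (0.212 to 0.628 CPM), with 0.198 to 0.502 CPM in col1-ACLP+SB, and the difference of col1-ACLP from col1 did not pass the test (-1.61, adjusted p = 0.165 by the same edgeR test). Mcam had 3.18 to 4.74, 3.18 to 6.63 and 4.27 to 5.00 CPM in the 3 groups, which overlapped, and Abcc9 was at 0 in every library. The part of these markers in the differences of Jag1, Hey1 and Hey2 was not tested.

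The wider pathway was followed in a list of 65 genes by role, which holds the 10 genes above and of which 55 were tested. On col1-ACLP, 3 of the 55 were called higher (Jag1, Hey2 and Hey1) and 2 lower (Dtx4 and Tle2), beside 2.61% and 2.36% of all tested genes. By adjusted p alone 10 were higher and 4 lower (9.52% and 8.41% of all tested genes). DESeq2 also called Aph1c lower (-0.91, adjusted p = 0.0305), which made 3, and limma-voom did not call Hey1, which left 2 higher. The median log2 fold change of the list was 0.0035. On col1-ACLP+SB against col1, 1 was called higher (Hey2) and 1 lower (Dtx4), beside 1.27% and 1.01% of all tested genes. By adjusted p alone 4 were higher and 2 lower there, beside 4.6% and 4.54% of all tested genes. With DESeq2, Hey1 and Neurl1b, a Neuralized-type ubiquitin ligase, were also called higher in that comparison, which made 3. Between the ACLP groups 0 of the 55 were called by edgeR, DESeq2 or limma-voom, where edgeR called 0.128% of all tested genes. With edgeR 12 had an unadjusted p below 0.05, again beside 12.8% of all tested genes. By adjusted p alone 2 were higher and 2 lower there (0.571% and 0.905% of all tested genes).

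**Figure D4:**
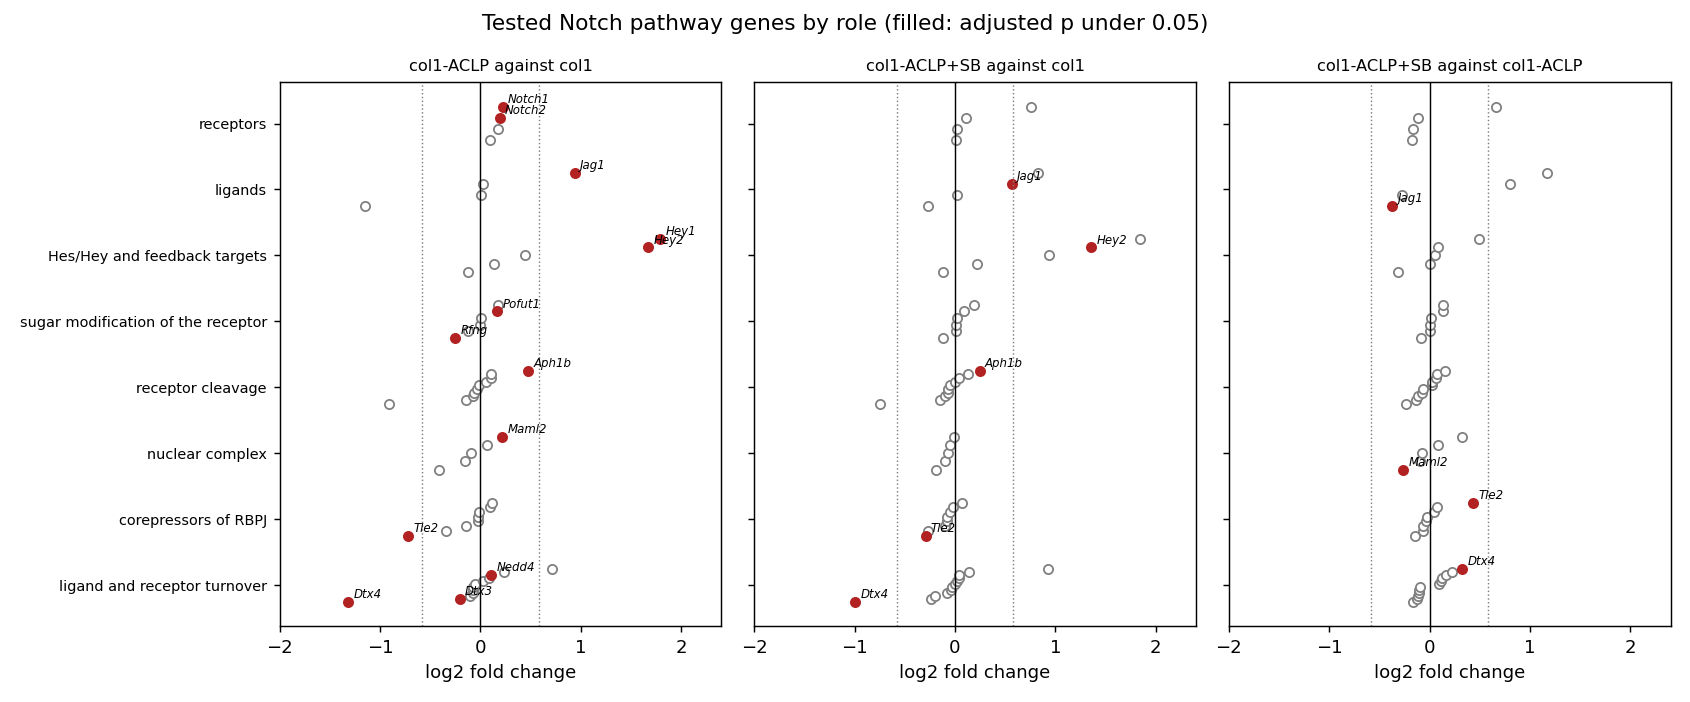
Log2 fold changes of tested genes of the Notch pathway by role in the 3 comparisons, with filled points for an adjusted p below 0.05 (edgeR). Most roles centre on 0; Jag1 (0.94), Hey2 (1.67) and Hey1 (1.79) stand out to the right on col1-ACLP and Dtx4 (-1.32) and Tle2 (-0.72) to the left.

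The largest fall that passed the test was that of Dtx4, which encodes a Deltex ubiquitin ligase that acts on Notch receptors in the endosome. It measured 105, 107, 109.5 and 127 CPM in col1, 46.4, 45.7, 46.1 and 41.4 CPM in col1-ACLP, and 51.3, 51.8, 58.1 and 63.8 CPM in col1-ACLP+SB. The 3 groups did not overlap, with col1 highest. Dtx4 fell by 1.32 on col1-ACLP (95% interval -1.47 to -1.16, adjusted p = 1.08e-12) and by 0.99 on col1-ACLP+SB (adjusted p = 4.03e-10), and it was higher by 0.33 with the inhibitor than without it (adjusted p = 0.0252), all by the same edgeR test. The last difference had an adjusted p of 0.0523, 0.0546 and 0.0969 without col1-ACLP replicate 2, 3 or 4, and of 0.0551 and 0.117 without col1-ACLP+SB replicate 3 or 4 (edgeR).

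Tle2, a Groucho-type corepressor that Hes proteins and RBPJ recruit, moved in the same direction. It measured 387, 367, 378 and 361 CPM in col1, 219, 234, 227 and 222 CPM in col1-ACLP, and 318, 328, 275 and 297 CPM in col1-ACLP+SB, again without overlap. Tle2 fell by 0.72 on col1-ACLP (95% interval -0.83 to -0.62, adjusted p = 6.14e-11) and by 0.29 on col1-ACLP+SB (adjusted p = 2.15e-04), and it was higher by 0.43 with the inhibitor than without it (adjusted p = 4.67e-05), all by the same edgeR test.

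In the roles of receptor cleavage, sugar modification and turnover and in the nuclear complex, 1 to 3 genes each passed the test, where 9.52% of all tested genes were higher and 8.41% lower on col1-ACLP by adjusted p. Of 10 tested genes of receptor cleavage only Aph1b, a γ-secretase subunit, passed the test on col1-ACLP, with 42.8 ± 4.08 CPM in col1 and 59.6 ± 5.44 CPM in col1-ACLP (SD, n = 4 each; 0.48, adjusted p = 5.44e-05 by the same edgeR test). On col1-ACLP+SB Aph1b was above col1 by 0.25 (adjusted p = 0.0473 by edgeR), and significance was lost in 12 of 20 alternatives. The proteases Adam10 and Adam17 and the presenilins did not pass. Of 6 tested genes of receptor sugar modification, Pofut1, the O-fucosyltransferase, was higher by 0.17 (adjusted p = 0.0316) and Rfng, radical fringe, lower by -0.25 (adjusted p = 0.0246) on col1-ACLP by the same edgeR test. Of 12 tested turnover genes 3 passed on col1-ACLP. Beside Dtx4, described above, Dtx3 fell by 0.21 (adjusted p = 0.00365) and Nedd4 was higher by 0.11 (adjusted p = 0.0301) by edgeR. In the nuclear complex, Rbpj itself did not pass in any comparison (-0.093, -0.19 and -0.097, with an adjusted p of 0.540, 0.206 and 0.738 by edgeR), and of the other 4 genes the coactivator Maml2 was higher by 0.22 on col1-ACLP (adjusted p = 0.0156 by edgeR). It was lower by -0.26 with the inhibitor than without it (adjusted p = 0.0313 by edgeR).

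The adjusted p of Pofut1, Rfng, Nedd4 and Maml2 crossed 0.05 with the libraries used or the processing, whereas that of Dtx3 and Aph1b on col1-ACLP stayed below 0.05 in all 20 alternatives run. The adjusted p on col1-ACLP was above 0.05 for Rfng without col1 replicate 2 (0.0756) or 4 (0.0644) or col1-ACLP replicate 3 (0.0689) or 4 (0.0501), and for Maml2 without col1 replicate 2 (0.0634) or col1-ACLP replicate 4 (0.0502), by edgeR. For Pofut1 it was 0.0615 to 0.0935 without col1 replicate 1, 2 or 3 or col1-ACLP replicate 1, 2 or 4, and for Nedd4 it was 0.0512 to 0.0772 without any 1 of the 4 col1-ACLP libraries or without col1 replicate 1, 2 or 3 (edgeR). Scaled by library size alone, Pofut1 was at 0.12 (adjusted p = 0.136), Nedd4 at 0.057 (0.262) and Maml2 at 0.17 (0.0671) on col1-ACLP, and without a filter on low counts the adjusted p was 0.0551 for Pofut1 and 0.104 for Nedd4 (edgeR). With a replicate block that of Pofut1 was 0.0529 (edgeR). The difference of Maml2 between the ACLP groups had an adjusted p of 0.0530 to 0.109 without any 1 of the 4 col1-ACLP libraries or without col1-ACLP+SB replicate 1, 2 or 4, and of 0.0521 under library size alone (edgeR).

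The genes whose pattern over the 12 libraries was nearest to that of each Notch gene were found by the root mean square difference of centred log2 CPM. For Jag1, whose own SD was 0.39, they were Cyp26b1 (0.063), a retinoic acid hydroxylase, Slc7a1 (0.066), a cationic amino acid transporter, and Col5a1 (0.070), a chain of type V collagen. For Hey2, with an SD of 0.74, they were Lox (0.19), the collagen cross-linking lysyl oxidase, Tnfrsf11b (0.20), osteoprotegerin, and Ccn4 (0.20), a matricellular protein. For Hey1, with an SD of 1.06, they were Tcim (0.61), Igf1 (0.61) and Adamtsl2 (0.63). Notch1 (SD 0.12) was nearest to Mapk1ip1l (0.041), Gorasp2 (0.046) and Fkbp1a (0.050), and Notch2 (SD 0.12) to Glg1 (0.044), Prpf8 (0.044) and Pi4ka (0.048). These genes were picked for likeness across the same libraries, which share the difference between the groups, so the distances are descriptions.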

How the data were processed

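Bulk poly(A) RNA-seq of 10T1/2 cells was analysed in 3 groups of 4 libraries, grouped by the sample labels. The authors mapped paired-end reads with HISAT2 and deposited raw counts of reads per gene for 56748 genes, without normalization. The sample records name the build mm10 and the paper's methods GRCm39. Coordinates in the table are those of GRCm39. The counting tool, its strand setting and its treatment of shared reads are not given in the sources used here. All 12 count columns were used.

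Tests were run on the counts with edgeR 4.0.16 in R 4.3.3, after filterByExpr (16465 genes kept, 40283 dropped), TMM factors and a quasi-likelihood fit with group as the only term over all 12 libraries, followed by Benjamini-Hochberg adjustment over the genes tested. A gene was called with an adjusted p below 0.05 and a log2 fold change beyond 0.58, the limits of the paper's methods, which used DESeq2. Intervals cover 95%. CPM used TMM-scaled library sizes, and CPM per kilobase divided by the gene length in the table. The 18 pairs of replicates differed beyond sampling noise (chi-square per degree of freedom 7.22 to 19.5), so 12 samples were counted. The paper calls the libraries biological replicates, whereas the labels do not say that they came from separate cultures, and p-values measure the spread between these samples. Common dispersion had a square root of 0.153. The procedure was tested on simulated data.

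The genes and lists were chosen with earlier results of these data known. Named genes were the 10 genes, all other receptors and ligands and, in each other role, up to 4 genes with the smallest adjusted p among those that passed in any comparison. The rule for likeness took the 3 tested genes nearest to each Notch gene that passed, with a prior count of 2. Hes2, Hes5, Hes6, Dtx1, Rbpj, Aph1c, Neurl1b, Adam10, Adam17, the presenilins and the cell type markers were named outside that rule. A gene of the wider list is not reported by name here, and the plot by role leaves it out. Alternatives were other size factors, other count filters, fewer groups in the fit, a replicate block, DESeq2 1.42.0, limma-voom (limma 3.58.1), the adjusted p alone and leaving out each library. For genes outside the 10 these were chosen after seeing the data.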

Additional observations from a re-analysis of the deposited data

Results flagged for a closer look

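Among 29 sets of 4 libraries tested for a single library far from the others by Dixon's test at 95%, 4 held one. The chance rate of about 1 in 20 holds for normally distributed values, so the 4 cannot be set against it. For Heyl and Nrarp in col1-ACLP+SB the other libraries were at 0, which fixes the test value at 1 whatever the count. Hey1 in col1 replicate 2 was at 0.530 CPM, above 0.182 to 0.235 CPM in the other col1 libraries. The same library stood apart on the first principal component. The other 3 rest on a few counts of genes that were not tested. Heyl was at 0.339 CPM (13 counts) in col1 replicate 1 and at 0.168 CPM (5 counts) in col1-ACLP+SB replicate 2, and Nrarp was at 0.0285 CPM (1 count) in col1-ACLP+SB replicate 1. A difference of 1 count is within sampling noise.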

How the results depend on the processing

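Over the 8 tested genes of the 10 and 3 comparisons, 478 alternative values were computed for 24 differences. Direction and side of the threshold were kept in 444, significance was lost in 15, gained in 5, and the sign turned in 14, of which 11 left out 1 library. Jag1 and Hey2 kept their side of the adjusted p threshold in all 20 alternatives (Jag1 0.86 to 0.97 and Hey2 1.58 to 1.75 on col1-ACLP). Where the sign turned, the cause was not tested, and none of those differences had passed. Under library size alone the values were -0.0056 for Notch2, -0.013 for Notch3 and -7.9e-04 for Dll1 (col1-ACLP+SB against col1), and -0.023 for Jag2 and -0.040 for Dlk2 (col1-ACLP against col1). limma-voom gave -0.11 for Jag2 on col1-ACLP and 6.1e-04 for Nedd4 on col1-ACLP+SB. Leaving out 1 library gave, on col1-ACLP+SB against col1, -0.023 to 0.054 for Notch2, -0.046 to 0.061 for Notch3, -0.38 to 1.09 for Dll1, -0.094 to 0.0078 for Maml2, -0.031 to 0.025 for Nedd4 and -0.073 to 6.7e-04 for Dtx3. On col1-ACLP against col1 it gave -0.14 to 0.37 for Notch4, -0.68 to 0.42 for Jag2 and -0.087 to 0.10 for Dlk2, and between the ACLP groups -0.30 to 0.29 for Hey1 and -0.029 to 0.19 for Hes1. Hey1 on col1-ACLP also lost significance with only the compared groups (adjusted p = 0.0669) and with limma-voom (1.49, 0.202), and on col1-ACLP+SB it passed without a filter (0.0495) and with DESeq2 (0.0164). Hes1 on col1-ACLP+SB passed without a filter (0.22, adjusted p = 0.0137). Notch2 on col1-ACLP was lost under library size alone (0.14, 0.0863).

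Of the 8 genes, 3, 1 and 0 were called on col1-ACLP against col1, on col1-ACLP+SB against col1 and between the ACLP groups, and by adjusted p alone 5, 2 and 1. Leaving out 1 library gave 2 to 3, 1 to 2 and 0 to 0, and no filter and DESeq2 gave 2 in the second comparison. Over all genes the counts were 819, 376 and 21, by adjusted p alone 2953, 1504 and 243, and with 1 library left out 723 to 834, 338 to 378 and 10 to 27. In the third comparison no filter and DESeq2 both gave 46, and the count of 21 fell to 10 without col1-ACLP replicate 4 and to 11 without col1-ACLP+SB replicate 4. Under library size alone, 362 genes were called higher and 480 lower on col1-ACLP, against 430 and 389. DESeq2 gave no adjusted p for Hey1 and Dll1 between the ACLP groups.

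Libraries share replicate numbers across groups, and neither the labels nor the paper says whether the numbers pair them. The deviations of same-numbered libraries were not correlated (-0.037 to 0.036 over 12 pairs), so no pairing was detected. This correlation gave all tested genes equal weight and could miss a weak shared effect. With a replicate block 785, 357 and 17 genes were called, Hey1 on col1-ACLP had an adjusted p of 0.0631 (edgeR) and Jag2 on col1-ACLP was at -0.18. Heyl and Nrarp, with 19 and 13 counts in all, are limited by depth.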
